A study of Mus musculus with 4 samples.

Results

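The genes described are 10 effector genes of cytotoxic lymphocytes, Gzma, Gzmb, Prf1, Nkg7, Ccl5, Xcl1, Fasl, Ifng, Klrd1 and Ctsw, taken by symbol from the 31053 genes of the count tables, where all 10 were found. They were read in mouse aortic arches with their branches and surrounding tissue, dissociated, sorted for DAPI-negative (viable) cells and profiled by droplet single-cell RNA sequencing. Each of 4 groups of male mice, aged 3 months at the start, gave 1 library. Lox_CTR is the normocholesterolemic control, from 4 pooled Nrf2flox/flox mice given saline and standard diet. KO_CTR pools 4 mice under the label normocholesterolemic Nrf2Cdh5tKO, which carry the same floxed Nfe2l2 alleles (exon 5) and Tg(Cdh5-cre)1Spe. Lox_HFD and KO_HFD pool 3 atherosclerotic mice each, of the Nrf2flox/flox and Nrf2Cdh5tKO labels, after 21 weeks of high-fat diet. The Cdh5 promoter drives Cre in endothelium and also in a proportion of hematopoietic cells, so leukocytes of the Nrf2Cdh5tKO mice may or may not be recombined. Values for the 4 libraries are given below in the order Lox_CTR, KO_CTR, Lox_HFD, KO_HFD.

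Natural killer (NK) cells and cytotoxic T cells kill by releasing granules onto a target cell. Perforin (Prf1) opens the target membrane, and granzymes (Gzma, Gzmb), which are serine proteases, enter and act inside. Nkg7 is a membrane protein of these granules that takes part in their release, and Ctsw (cathepsin W) is a papain-like protease made mainly by NK and cytotoxic T cells. Fas ligand (Fasl) kills by a separate route, through the death receptor Fas. Ifng encodes interferon gamma, which activates macrophages, while Ccl5 and Xcl1 are chemokines, the latter drawing dendritic cells that carry Xcr1. Klrd1 (CD94) pairs with NKG2 chains to form receptors that read MHC class I-like molecules. T cells differ from NK cells in carrying the Cd3 complex with a rearranged antigen receptor.

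The promoters of the 3 granule-killing genes are shown because these genes separated NK from T cells most or, for Gzmb, less (values below), and because T-box and RUNX factors are known regulators of cytotoxic genes. Each line is the 250 bases before the RefSeq start in GRCm38.p6, with matches to a T-box core (AGGTGT, or ACACCT on the other strand) and a RUNX core (TGTGGT, or ACCACA) in capitals. The Gzma window is chr13:113100982-113101231 and the Gzmb window chr14:56262335-56262584, both on the reverse strand, and the Prf1 window is chr10:61297586-61297835 on the forward strand.
Gzma: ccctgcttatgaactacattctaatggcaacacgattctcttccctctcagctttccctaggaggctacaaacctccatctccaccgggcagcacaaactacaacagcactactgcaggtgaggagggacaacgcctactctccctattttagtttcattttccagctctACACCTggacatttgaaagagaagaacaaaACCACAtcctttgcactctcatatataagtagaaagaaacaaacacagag
Gzmb: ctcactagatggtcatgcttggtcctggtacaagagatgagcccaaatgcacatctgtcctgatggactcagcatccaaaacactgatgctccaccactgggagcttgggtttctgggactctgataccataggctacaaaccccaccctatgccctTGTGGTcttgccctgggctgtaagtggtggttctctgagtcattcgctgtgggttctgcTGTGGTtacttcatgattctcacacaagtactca
Prf1: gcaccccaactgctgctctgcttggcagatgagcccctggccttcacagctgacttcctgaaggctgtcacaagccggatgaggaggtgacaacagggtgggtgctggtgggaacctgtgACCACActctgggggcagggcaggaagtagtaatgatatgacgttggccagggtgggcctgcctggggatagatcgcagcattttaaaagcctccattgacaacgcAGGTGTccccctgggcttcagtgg
The Gzma promoter held a T-box core 80 to 75 bases and a RUNX core 50 to 45 bases before the start. Prf1 also held both, a T-box core 24 to 19 bases and a RUNX core 130 to 125 bases before it. Gzmb held 2 RUNX cores, at 93 to 88 and 34 to 29 bases, and no T-box core in this window. Of the 7 genes with a promoter in the RefSeq table (Gzma, Gzmb, Prf1, Nkg7, Xcl1, Fasl and Ifng), 3 held the T-box core (the third was Nkg7) and 5 the RUNX core. Among all 32851 promoters of the same length, 11.8% held the T-box core, 14.0% the RUNX core and 2.13% both. A match describes the letters of the window and is not a binding site.

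The libraries held 1160 to 8512 barcodes and 12276546 to 98754487 unique molecular identifiers (UMIs, each standing for 1 captured transcript), and the cells kept numbered 7890, 2972, 1020 and 2266, with median depths of 9200.5 to 14152.5 UMIs. Pairs of libraries shared 2 to 10 barcodes. Nfe2l2, the targeted gene, was at 169, 315, 231 and 346 CPM (UMIs of a gene scaled to 1000000 UMIs of its gate and library) in endothelial-like cells, so it was not lower under the Nrf2Cdh5tKO labels. The counts are given per gene and do not separate exons, so the loss of exon 5 was not tested. KO_CTR and KO_HFD are therefore used as labels only. Lymphocytes were gated without the 10 genes: NK-like cells had no Cd3d, Cd3e or Cd3g UMI and at least 2 UMIs over 7 NK markers (Ncr1, Klrb1c, Klre1, Klra8, Klra4, Klri2, Eomes), and T cell-like cells had at least 2 Cd3 UMIs and fewer than 2 thymocyte marker UMIs. The NK-like gate held 41 cells (29, 6, 2 and 4 by library) and the T cell-like gate 343 (173, 75, 49 and 46). Ncr1 was in 87.8% and Klre1 in 95.1% of NK-like cells, against 0.875% and 10.8% of T cell-like cells. Both are gate markers, so their high shares in NK-like cells follow in part from the gate. The 223 lymphocytes that also carried stromal, macrophage, B cell, dendritic, neutrophil or endothelial markers were set aside.

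With all libraries summed, NK-like and T cell-like cells made up 0.290% and 2.42% of the kept cells and together held most of the UMIs of each of these genes except Klrd1 (13.7% and 25.4%). NK-like cells held 66.2% of all Prf1 UMIs, 60.2% of Gzma, 41.1% of Gzmb, 31.5% of Xcl1, 30.8% of Nkg7 and 30.2% of Ccl5. T cell-like cells held 57.4% of Ifng, 54.9% of Ctsw, 53.5% of Fasl, 50.7% of Xcl1, 46.1% of Nkg7 and 45.2% of Ccl5, but 5.41% of Gzma and 12.7% of Prf1. The split differed between libraries. Of 514 Xcl1 UMIs in Lox_CTR, 217 were in NK-like and 181 in T cell-like cells, and of 768 Gzma UMIs in KO_CTR, 331 were in NK-like cells. Most of the remaining Gzma lay in thymocyte-like cells (19.2%), and most of the remaining Klrd1 in dendritic cell-like (17.5%) and macrophage-like (15.5%) cells. In fibroblast-like and smooth muscle-like cells, which are not lymphocytes, each was at 4.90 CPM or less. Ccl5, the most abundant, had a UMI in 3.88% of fibroblast-like and 5.07% of smooth muscle-like cells at median depths of 12973 and 15144 UMIs. Other cells are read against this level, and whether it came from free RNA or from these cells was not tested.

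**Figure D1:**
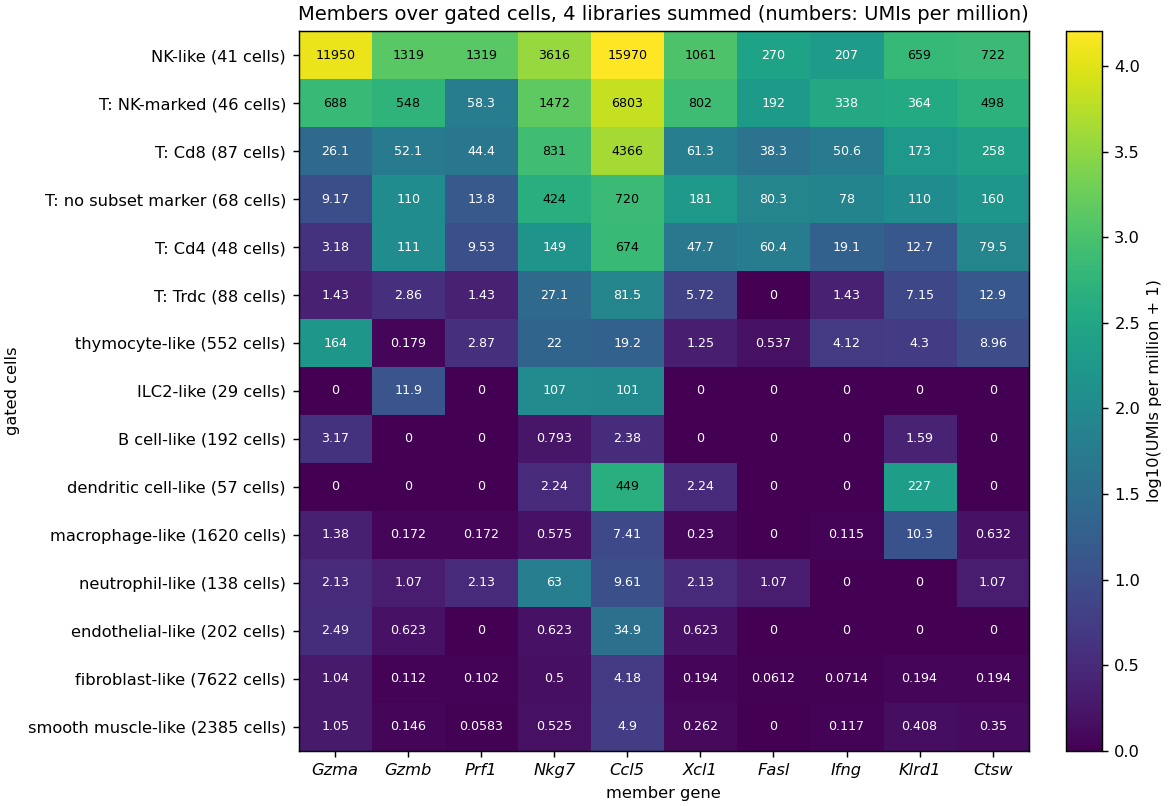
Heat map of the 10 genes (columns) over gated cells (rows, with the number of cells), the 4 libraries summed. Colour is log10(CPM + 1) and the printed numbers are CPM. The top row, NK-like cells, runs from 207 for Ifng to 15970 for Ccl5. Thymocyte-like cells stand out most for Gzma (164), and dendritic cell-like cells for Ccl5 (449) and Klrd1 (227).

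Gzma (ENSMUSG00000023132, GRCm38 chromosome 13, 113093825 to 113100981, reverse strand), whose product is a tryptase-like granzyme, was at 13300, 9039, 6642 and 14600 CPM in NK-like cells and at 185, 32.9, 2.87 and 29.1 CPM in T cell-like cells. Every NK-like value was above every T cell-like value, but such a lack of overlap was not set beside all genes tested. Over the 4 libraries the log2 fold change was 7.72 ± 0.444 (SE from the fit, n = 4). Its adjusted p was 4.03e-08 by edgeR's quasi-likelihood test with library as a block. In T cell-like cells of Lox_CTR, 191 of the 230 Gzma UMIs came from a single cell. Gzma was in 87.8% of NK-like and 5.83% of T cell-like cells. Of 2852 genes tested, 78 (2.73%) were called higher and 134 (4.7%) lower in NK-like cells at an adjusted p under 0.05, and 9 of the 10 genes were among the higher. Without Lox_CTR these counts were 34 higher, 66 lower and 5 of the 10, and with the mixed lymphocytes kept 25, 33 and 3. The p-values measure the spread between these libraries, which also differ in diet and genotype label.

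Prf1 (ENSMUSG00000037202, chromosome 10, 61297833 to 61304680, forward strand), the pore former, was at 1401, 1038, 501 and 2077 CPM in NK-like cells and at 19.3, 19.7, 28.7 and 54.6 CPM in T cell-like cells. Again the groups did not overlap, and Prf1 rose by 5.31 ± 0.371 on the log2 scale (SE, n = 4, edgeR adjusted p = 3.11e-07). Gzmb (ENSMUSG00000015437, chromosome 14, 56258838 to 56262260, reverse strand), a granzyme that cuts after aspartate and activates caspases, was at 1723, 628, 188 and 1466 CPM in NK-like and at 133, 165, 48.8 and 98.2 CPM in T cell-like cells. The lowest NK-like value, in Lox_HFD, came from 6 UMIs in 2 cells, and its exact Poisson interval of 69.0 to 409.1 CPM holds the T cell-like values of the other libraries. The log2 fold change of Gzmb was 2.91 ± 0.391 (SE, n = 4, edgeR adjusted p = 0.000209), higher in 4 of 4 libraries. In the sums over all libraries, NK-like cells held 53.5 times the T cell-like level of Prf1 and 10.6 times that of Gzmb. For Gzma the log2 ratio was 6.17 in Lox_CTR, with 230 of the 259 T cell-like UMIs, and 8.10, 11.18 and 8.97 in the other libraries.

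Nkg7 (ENSMUSG00000004612, chromosome 7, 43437073 to 43438249, forward strand) was at 3767, 3960, 3102 and 3085 CPM in NK-like cells, the most even of the genes over the libraries. In T cell-like cells it was at 393, 461, 843 and 884 CPM, and both high-fat libraries lay above both standard-diet libraries. The log2 fold change was 2.42 ± 0.254 (SE, n = 4, edgeR adjusted p = 2.86e-05). By library the log2 ratio of NK-like to T cell-like cells was 3.26, 3.104, 1.88 and 1.80, lower in both high-fat libraries.

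Klrd1 (ENSMUSG00000030165, chromosome 6, 129591782 to 129598775, forward strand) was at 736, 765, 407 and 458 CPM in NK-like cells and at 102, 135, 143 and 131 CPM in T cell-like cells, with no overlap. Ctsw (ENSMUSG00000024910, chromosome 19, 5465043 to 5468507, reverse strand) was at 786, 792, 533 and 549.8 CPM in NK-like and at 131, 220.5, 261 and 200.1 CPM in T cell-like cells. Their log2 fold changes were 2.13 ± 0.328 for Klrd1 (adjusted p = 0.000628) and 1.68 ± 0.320 for Ctsw (adjusted p = 0.00334; SE, n = 4, edgeR). Without Lox_CTR, Ctsw did not pass (1.28, adjusted p = 0.0752, edgeR). Ctsw was spread over more T cells than the granule killers: 42.6% of T cell-like cells had a Ctsw UMI, against 16.0% for Gzmb and 13.1% for Prf1.

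Among the secreted and surface ligands, Ccl5 (ENSMUSG00000035042, chromosome 11, 83525778 to 83530518, reverse strand) had the most UMIs of the 10 genes in both gates, all libraries summed. It was at 19560, 11630, 2757 and 18360 CPM in NK-like cells and at 1905, 1227, 5107 and 3177 CPM in T cell-like cells. Here the gates overlapped, since in Lox_HFD the sum of the 2 NK-like cells was below the T cell-like sum (log2 ratio -0.89, exact interval -1.22 to -0.58). The 2 cells differed widely, with 11 UMIs at 400 CPM in 1 and 77 UMIs at 17340 CPM in the other. Ccl5 rose by 2.16 ± 0.515 on the log2 scale over the libraries (SE, n = 4, edgeR adjusted p = 0.0154), higher in 3 of 4. Without the Lox_HFD library the value was 2.91 (adjusted p = 2.61e-08), and it did not pass without Lox_CTR (1.63, adjusted p = 0.138) or without KO_HFD (1.999, adjusted p = 0.0733, edgeR).

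Xcl1 (ENSMUSG00000026573, chromosome 1, 164931644 to 164935527, reverse strand) was at 1551, 328, 846 and 0 CPM in NK-like cells and at 146, 240.2, 244 and 3.64 CPM in T cell-like cells. KO_HFD was at the bottom in both gates, with 0 UMIs in 4 NK-like cells (exact Poisson upper bound 112.7 CPM) and 1 UMI in 46 T cell-like cells. The log2 fold change between the gates was 1.88 ± 0.483 (SE, n = 4, edgeR adjusted p = 0.0248). Without Lox_CTR it was 0.93 (adjusted p = 0.398, edgeR).

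Fasl (ENSMUSG00000000817, chromosome 1, 161780689 to 161788495, reverse strand) was at 293, 328, 62.7 and 305 CPM in NK-like and at 55.5, 41.1, 71.7 and 98.2 CPM in T cell-like cells. The Lox_HFD value, 2 UMIs, lay within the T cell-like range. The log2 fold change of Fasl was 1.88 ± 0.450 (SE, n = 4, edgeR adjusted p = 0.0159). It did not pass without Lox_CTR (1.59, adjusted p = 0.144) or without KO_CTR (1.52, adjusted p = 0.139, edgeR).

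Ifng (ENSMUSG00000055170, chromosome 10, 118441046 to 118445892, forward strand) was the only one of the 10 genes that did not pass. It was at 293, 109, 31.3 and 122 CPM in NK-like cells, from 41, 4, 1 and 4 UMIs, and at 81.3, 62.5, 132 and 18.2 CPM in T cell-like cells. The gates overlapped widely. The log2 difference was 1.03 ± 0.55 (SE, n = 4, edgeR adjusted p = 0.383), and without Lox_HFD it was 1.61 and passed (adjusted p = 0.0200, edgeR). Over the 40 pairs of gene and library, NK-like cells were above T cell-like cells in 36. The exceptions were Ccl5, Fasl and Ifng in Lox_HFD, where the gate held 2 cells, and Xcl1 in KO_HFD. Neither this count nor the lack of overlap between gates was set beside all genes tested, so both describe these 10 genes only.

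**Figure D2:**
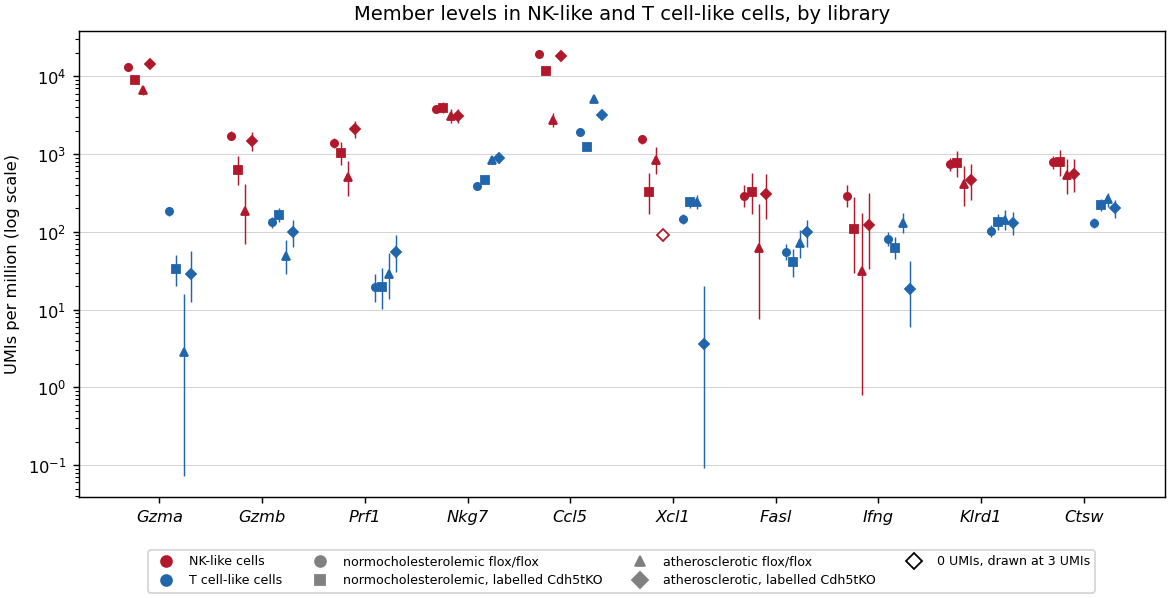
CPM of the 10 genes (log axis) in NK-like cells (red) and T cell-like cells (blue), 1 symbol per library, with exact Poisson intervals as bars. The red symbols of Gzma lie between 6642 and 14600 and the blue between 2.87 and 185, whereas for Ccl5, Xcl1, Fasl and Ifng the colours overlap.

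**Figure D3:**
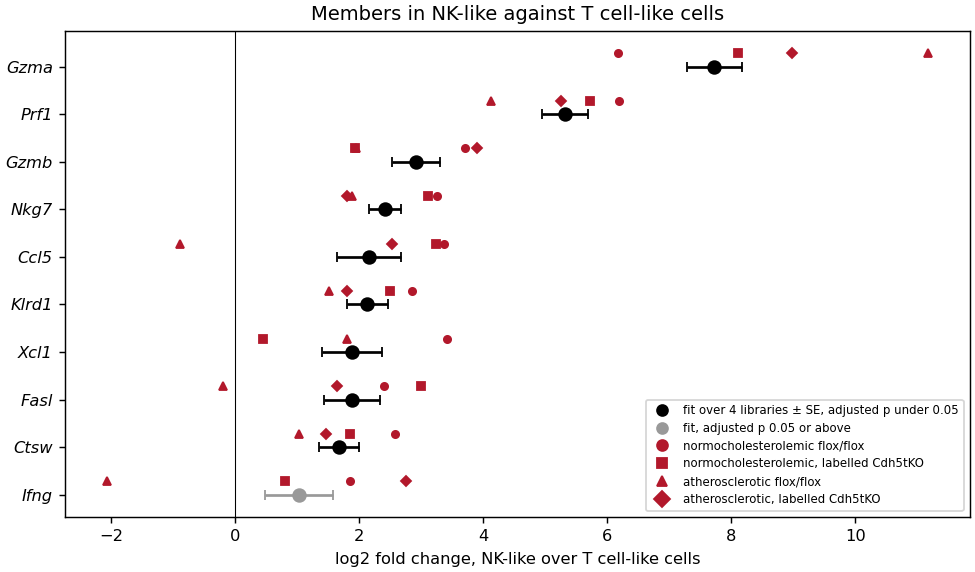
Log2 fold change of NK-like over T cell-like cells for the 10 genes, from the fit over 4 libraries (black, bar is the SE, grey where the adjusted p was 0.05 or above) and within each library (red symbols). Gzma at 7.72 and Prf1 at 5.31 stand apart from the other genes, which lie between 1.03 and 2.91, and Xcl1 has no symbol for KO_HFD, where NK-like cells held 0 UMIs.

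The other genes of NK and T cells moved in both directions. Of the 8 tested granule genes, 4 were higher in NK-like cells and none lower, namely the serpins Serpinb6b (log2 2.94) and Serpinb9 (2.77), inhibitors that shield killer cells from their own granzymes, the cystatin Cst7 (1.77) and the lysosomal protease Ctsd (1.39). Of 14 tested killer receptor genes, 11 were higher, led by Klrb1a (6.58) and the signalling adaptors Tyrobp (5.60) and Fcer1g (4.95), and Pdcd1 was lower (-2.58). Ly49 genes of the Klra family resemble each other closely, so their reads may be split between copies. Of 12 transcription factors, Irf8 was higher (6.95) and Tcf7, Lef1, Rora and Bcl11b, known for T cell development and the T cell state, were lower (-2.18 to -5.70). Of 4 cytokine and death ligand genes, the chemokine Ccl4 was higher (3.57), Ltb and Cd40lg were lower, and Tnf did not pass (-2.02, adjusted p = 0.0873, edgeR).

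Of 9 tested cytokine receptor genes, Il2rb, the chain NK cells use for interleukin 15, and Il18rap were higher, and Il7r, Il2ra and Ifngr2 were lower. Of 11 homing and residency genes, 3 were higher, the integrin gene Itgam (6.22) among them, and Cxcr6, Ccr7, Cd69 and S1pr1 were lower. The median log2 fold change was 2.15 over the 10 genes, 3.04 over the killer receptors, 1.002 over the granule genes and -0.04 over all 2852 genes. Of 9 genes that tissue dissociation induces, Fos (-1.24) and Junb (-0.98) were lower in NK-like cells, and none of 3 cell cycle genes passed. Besides those already named, the largest changes with the same sign in all libraries were in Car2, Cma1, Lat2 and Itga2, higher in NK-like cells. With 0 UMIs in NK-like cells, Cxcr6 was at least 31.2-fold lower, Ccr7 at least 23.2-fold, Cd163l1 at least 20.2-fold and Tcrg-C1 at least 18.6-fold, against a floor of 3 UMIs over the gate. Ramp3, Cd8b1, Serpinb1a, Actn2, Klk8 and Il2ra were also at 0 there, at least 8.19-fold to 16.4-fold lower.

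The T cell-like cells were not alike in these genes. They were divided by their own markers into 46 NK-marked cells (at least 2 UMIs of the NK markers beside Cd3), 88 Trdc cells (with the gamma-delta receptor gene Trdc), 87 Cd8 cells, 48 Cd4 cells and 68 with no subset marker, and 6 cells held both Cd4 and Cd8. NK-marked T cells came closest to NK-like cells, with 6803 CPM of Ccl5, 1472 of Nkg7, 802 of Xcl1, 548 of Gzmb and 338 of Ifng. Of 230 Gzma UMIs in T cell-like cells of Lox_CTR, 224 were in Cd8 and NK-marked cells, 9 of them in Cd8 cells. Without the highest cell, 39 of the 230 remained. Of 100 Gzmb UMIs in KO_CTR, 97 were in Cd8 and NK-marked cells, 4 of them in Cd8 cells. Without the highest cell, 43 of the 100 remained. Prf1 of NK-marked T cells, 58.3 CPM, remained near that of Cd8 cells, 44.4 CPM, and far from the 1319 CPM of NK-like cells. Cd8 T cells, the classic killers, had 4366 CPM of Ccl5 and 831 of Nkg7. Gzma was at 26.1, Gzmb at 52.1 and Prf1 at 44.4 CPM. These cells thus carried the chemokine and the granule membrane gene with little Gzma, Gzmb or Prf1 mRNA. Gzmk, another granzyme gene, was at 85.8 CPM, in 18.4% of them. The Cd8 subset leaves out cells with at least 2 NK marker UMIs or a Trdc UMI, which were counted as NK-marked or Trdc cells. Cd4 T cells had 674 CPM of Ccl5, with 183 of 212 UMIs in Lox_CTR and 0 in KO_CTR and KO_HFD, and 149 CPM of Nkg7. Of their 35 Gzmb UMIs, 31 came from 1 cell of Lox_CTR.

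Trdc T cells held few UMIs of the effector genes, except in KO_CTR. With all libraries summed Ccl5 was at 81.5 CPM and Nkg7 at 27.1 CPM, and Fasl had 0 UMIs. Of the 57 Ccl5 UMIs, 56 lay in 2 of the 12 Trdc cells of KO_CTR (689 CPM), where Nkg7 was at 172 CPM and 3 cells had at least 3 of the genes, against 0 cells in the other libraries. Nkg7 was at 71.1 CPM in Lox_HFD and had 0 UMIs in Lox_CTR and KO_HFD. These 88 cells instead held Il17a (507 CPM, in 31.8% of cells), the scavenger receptor gene Cd163l1 (883 CPM), and Il7r (1383 CPM), features of interleukin 17-making gamma-delta T cells. They made up 35.3% of T cell-like cells in Lox_CTR and 16.0%, 16.3% and 15.2% in KO_CTR, Lox_HFD and KO_HFD, a difference that bears on any comparison of whole T cell-like gates.

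Within single cells the genes were found together. NK-like cells carried a median of 9 of the 10 genes, and 40 of 41 (97.6%, exact Clopper-Pearson interval 87.1 to 99.9%) had at least 3. T cell-like cells carried a median of 1, and 124 of 343 (36.2%, 31.1 to 41.5%) had at least 3. The median was 6 in NK-marked T cells, 3 in Cd8 cells and 0 in Cd4 and Trdc cells, and 82.95% of Trdc cells had none. With every cell thinned to 2000 UMIs, which leaves out 5 NK-like and 24 T cell-like cells, the medians were 7 and 0 and the shares with at least 3 were 100% and 28.8%. In smooth muscle-like and fibroblast-like cells, which are deeper, 0.0839% and 0.0262% had at least 3. By library the share of T cell-like cells with at least 3 was 27.2%, 42.7%, 53.1% and 41.3%, or 23.1%, 26.4%, 43.8% and 37.2% after thinning.

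**Figure D4:**
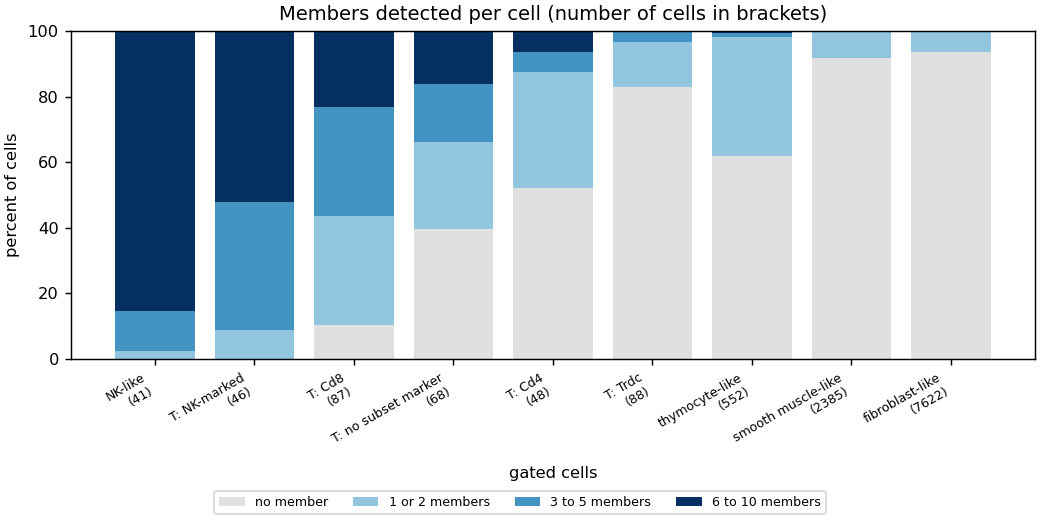
Share of cells (percent) with none, 1 or 2, 3 to 5 and 6 to 10 of the genes detected, by gate, all libraries together and unthinned. NK-like cells are almost wholly in the darkest class (85.4%), NK-marked T cells reach 52.2% and Cd8 cells 23.0%, and Trdc cells have none of the genes in 82.95%.

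The pairs differed in their closeness. In NK-like cells, 32 of the 36 cells with Gzma (88.9%) also had Gzmb and 33 (91.7%) also had Prf1. Gzmb and Prf1 were each in 34 of all 41 NK-like cells, so these shares lay near those of the gate as a whole. In T cell-like cells, 17 of the 55 cells with Gzmb (30.9%) also had Prf1, against 9.72% of those without Gzmb, and 12.1% against 4.196% after thinning. Most T cells with Ccl5, Prf1 or Xcl1 also had Nkg7. Ccl5 was in 61.3% of the 150 T cells with Nkg7 and 3.11% of the 193 without it, and Prf1 in 28.0% and 1.55%. All 58 T cells with an Xcl1 UMI also had Nkg7, or 86.5% of 37 after thinning. Ifng was in 46.6% of the T cells with Xcl1 and 7.02% of those without it. Cells with and without Nkg7 had similar depths (medians of 7221 and 6652 UMIs).

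Gzma was the one gene of the 10 above 22.03 CPM in thymocyte-like cells, defined by at least 2 Cd3 UMIs and at least 2 UMIs of Rag1, Rag2, Dntt, Ptcra, Arpp21 and Ccr9. It was at 178, 126, 252 and 82.9 CPM there and in 29.9%, 31.4%, 27.0% and 25.9% of cells, in 552 cells in all. All 4 libraries thus showed it, at shares whose intervals overlapped. The share over all libraries was 12.5% after thinning, against 0.152% in fibroblast-like and 0.227% in smooth muscle-like cells. Over all thymocyte-like cells Gzmb had 1 UMI in all and Prf1 16, so Gzma stood largely without its partners, in contrast to NK-like cells. The Prf1 UMIs lay in 12 of the 552 cells, against 10 UMIs in 10 of 7622 fibroblast-like cells, so Prf1 was above that level. Ctsw had 50 UMIs in 28 thymocyte-like cells, against 19 UMIs in 19 fibroblast-like cells. In Lox_CTR, 3 thymocyte-like cells had at least 6 of the genes. Nkg7 was in 4.71% and Ccl5 in 4.17% of thymocyte-like cells. The Nkg7 UMIs were 123 in 26 of the 552 thymocyte-like cells and 49 in 39 of 7622 fibroblast-like cells, so Nkg7 was above the fibroblast-like level. Ccl5 was in 5.07% of smooth muscle-like cells, but these were deeper, at a median of 15144 against 5843 UMIs. Its UMIs were 107 in 23 thymocyte-like cells and 168 in 121 smooth muscle-like cells.

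Klrd1 had the largest share of its UMIs outside the NK-like and T cell-like gates. In dendritic cell-like cells it was at 167, 186, 303 and 360.2 CPM in the 4 libraries, in 31 of 57 cells (54.4%, or 30.4% after thinning). That is above the 119 CPM of T cell-like cells in every library, and below the 659 CPM of NK-like cells. Macrophage-like cells had Klrd1 in 4.198% of cells at 10.3 CPM, against 0.194 CPM in fibroblast-like cells, and endothelial-like cells had 0 UMIs (upper bound 2.30 CPM). Ctsw, Fasl, Ifng, Gzma, Gzmb and Prf1 were at 0 in dendritic cell-like cells, so Klrd1 was not accompanied by the killing genes. Ccl5 was at 374, 1687, 20.6 and 0 CPM in those cells, with 401 UMIs in 7 of 57 cells, and 236 of them in a single cell of KO_CTR. In the 29 ILC2-like cells Nkg7 was at 107 CPM and Ccl5 at 101 CPM, and neither Gzma nor Prf1 had a UMI.

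No test was made between libraries, as each condition was 1 pooled library, and the intervals of the ratios cover counting error only. A gene counted as apart where its CPM differed by at least 2-fold with at least 20 UMIs over both libraries. In T cell-like cells of the Nrf2flox/flox pair, 2 of the 10 genes were higher in Lox_HFD than in Lox_CTR, beside 7.47% of the 6643 genes with 20 UMIs, and 2 were lower, beside 9.59%. Higher were Ccl5 (log2 ratio 1.42, exact interval 1.33 to 1.51) and Nkg7 (1.10, 0.89 to 1.31), and lower were Gzma (-6.01, from 1 against 230 UMIs) and Gzmb (-1.45, -2.26 to -0.72). In the pair labelled Nrf2Cdh5tKO, 3 of the 10 were higher in KO_HFD, beside 4.28% of 5137 genes, and 2 were lower, beside 7.4%. Higher were Prf1 (1.47, 0.27 to 2.69, from 15 against 12 UMIs), Ccl5 (1.37, 1.23 to 1.52) and Fasl (1.26, 0.42 to 2.10), and lower were Xcl1 (-6.05) and Ifng (-1.78, -3.48 to -0.43). Ccl5 was the only gene apart in the same direction in both pairs, and Nkg7 in the second pair was at 0.94 (0.69 to 1.19).

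The share of Trdc cells, which carried little Ccl5 or Nkg7 in these 2 libraries, was lower in Lox_HFD than in Lox_CTR, and without these cells the ratios of the first pair were 0.996 (0.91 to 1.08) for Ccl5 and 0.65 (0.43 to 0.86) for Nkg7. In the second pair, where the Trdc shares were close, they were 1.52 and 1.05. Among Cd8 T cells alone Ccl5 was at 3929, 1141, 11770 and 4238 CPM, and Nkg7 at 489.9, 535, 1641 and 1287 CPM. Both high-fat libraries were above both standard-diet libraries for Nkg7, and for Ccl5 the intervals of Lox_CTR (3666 to 4206) and KO_HFD (3851 to 4654) overlapped. Within Cd8 T cells the log2 ratios of high-fat to standard diet were 1.58 (1.46 to 1.71) and 1.89 (1.67 to 2.12) for Ccl5, and 1.74 (1.39 to 2.11) and 1.27 (0.90 to 1.63) for Nkg7, from 16 and 29 cells in the first pair and 17 and 25 in the second. Leaving out the highest cell of each library, the ratios over all T cell-like cells were 1.21 and 1.43 for Ccl5 and 1.12 and 0.88 for Nkg7. The share of Cd8 cells with a Ccl5 UMI was 48.3%, 24.0%, 56.3% and 52.9%.

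The subsets did not all follow the whole gate. In NK-marked T cells Ccl5 was at 7272, 6610, 3829 and 13060 CPM and Nkg7 at 1490, 1372, 1004 and 2907 CPM, lower with high-fat diet in the Nrf2flox/flox pair and higher in the other. With Cd8 and NK-marked cells summed the Ccl5 ratios were 0.62 (0.53 to 0.72) and 1.45 (1.30 to 1.60). Gzmb in Cd8 T cells was at 19.0, 17.7, 97.6 and 145 CPM, from 4, 4, 11 and 15 UMIs, higher in both high-fat libraries, whereas in all T cell-like cells it was lower in both. Summed over their lists, marker genes of other cells also varied in the T cell-like gate: the 6 neutrophil markers were at 97.4, 19.7, 63.1 and 3.64 CPM, the 6 macrophage markers at 73.3, 109, 88.9 and 215 CPM and the 6 fibroblast markers at 593, 770.0, 169 and 353 CPM. Their part in the ratios was not tested.

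**Figure D5:**
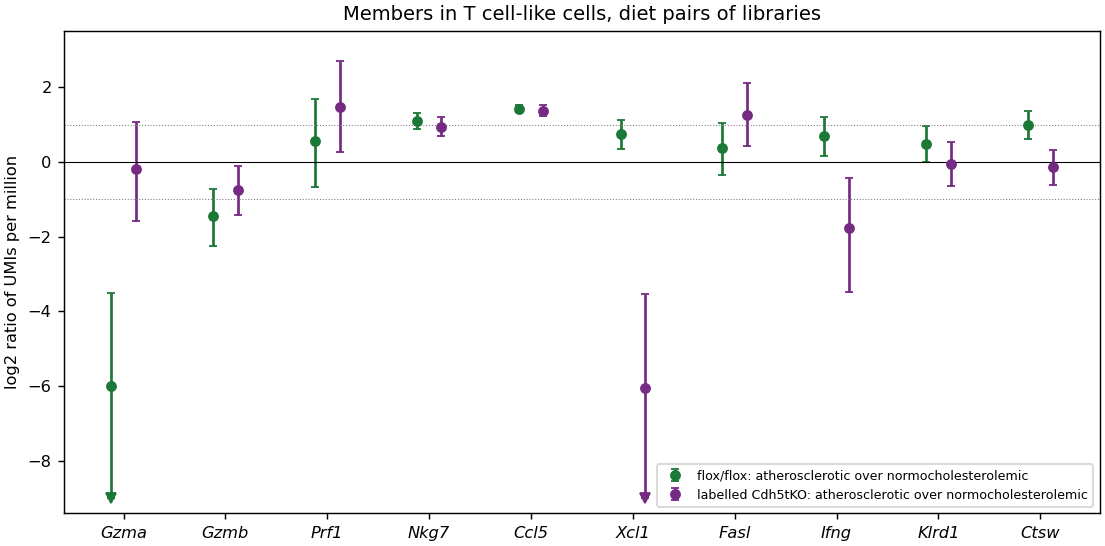
Log2 ratio of CPM in T cell-like cells, high-fat over standard-diet library, for the Nrf2flox/flox pair (green) and the pair labelled Nrf2Cdh5tKO (purple), with exact intervals for counting error and dotted lines at 2-fold. Arrows mark intervals that run past the axis. Ccl5 lies at 1.42 and 1.37 in the pairs, while Xcl1 lies at 0.74 and -6.05.

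Single cells weighed on several of these ratios. The Gzma ratio of the first pair rested on the Lox_CTR cell with 191 of 230 UMIs. With that cell and the highest of Lox_HFD left out, Gzma was at 31.8 CPM in Lox_CTR and 0 in Lox_HFD. With the cells that Scrublet marked as doublets removed, the Gzma ratio of KO_CTR to Lox_CTR was 0.0815 in place of -2.49. Gzmb of KO_CTR was drawn from 9 cells, with 57.0% of its 100 UMIs in 1 of them. With the highest cell of both libraries left out, the Gzmb ratio of the second pair was -0.09 (-0.97 to 0.74) in place of -0.74. In the same way Fasl of that pair was at 0.93 (-0.07 to 1.905) in place of 1.26, under 2-fold. Prf1 of that pair stayed past 2-fold, at 1.69 (0.35 to 3.095). The Gzmb ratio of KO_HFD to Lox_HFD was 0.93 (-0.20 to 2.12) in place of 1.01, also under 2-fold.

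Xcl1 in KO_HFD was low in both lymphocyte gates. Among NK-marked T cells, which held most of the Xcl1 of the T cell-like gate, there were 132, 96, 47 and 0 UMIs in 21, 8, 12 and 5 cells. In KO_HFD those 5 cells had the highest Ccl5 and Nkg7 of that subset. Over the whole KO_HFD library, Xcl1 had 8 UMIs in 4 of 2266 cells, against 123 UMIs in 18 of 1020 cells of Lox_HFD. Ifng in T cell-like cells was likewise lowest in KO_HFD, with 5 UMIs in 4 of 46 cells (8.70%), against 28.6% of 49 cells in Lox_HFD.

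Between the genotype labels, T cell-like cells of KO_CTR had 1 of the 10 genes lower than Lox_CTR (Gzma, -2.49), beside 5.86% of 7130 genes, and none higher, beside 7.04%. T cell-like cells of KO_HFD had Xcl1 (-6.07) and Ifng (-2.86, -4.55 to -1.53) lower than Lox_HFD, beside 4.69% of 4006 genes. Gzmb was higher (1.01, 0.08 to 1.98), beside 3.72%, and Gzma, at 8 against 1 UMIs, had too few to count. Nkg7 over the whole T cell-like gate differed little between the labels at either diet (0.23, 0.01 to 0.45, and 0.07, -0.18 to 0.32). Trdc cells, however, were 35.3% of the gate in Lox_CTR and 16.0% in KO_CTR. Without them the ratios of KO_CTR to Lox_CTR were -1.29 (-1.42 to -1.17) for Ccl5, past 2-fold, and -0.39 (-0.61 to -0.17) for Nkg7. In Cd8 cells Ccl5 was at -1.78 between the labels at standard diet and -1.47 at high-fat diet. Ctsw in Cd8 cells was higher at standard diet (1.21, 0.57 to 1.88).

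In NK-like cells the comparisons rest on 29, 6, 2 and 4 cells, and genes differed widely between libraries in general. In Lox_HFD against Lox_CTR, 6 of the 10 genes were lower (Gzma, Gzmb, Prf1, Ccl5, Fasl and Ifng), beside 22.9% of 1267 genes, and none higher, beside 15.8%. In the same comparison 3 of 3 cell cycle genes with 20 UMIs were higher and 5 of 8 dissociation genes lower, and their part in it was not tested. In KO_HFD against KO_CTR, where 8 of the 10 genes had 20 UMIs, Gzmb (1.22) and Prf1 (1.001) were higher, beside 9.63% of 488 genes. None of the 8 was lower, beside 12.9%. Xcl1 (0 against 12 UMIs) and Ifng (4 against 4) fell below 20 UMIs and were not counted. For Gzmb and Prf1 the diet pairs did not point the same way. In KO_CTR against Lox_CTR, Gzmb, Xcl1 and Ifng were lower, beside 11.7% of 1268 genes, and none was higher, beside 6.55%. In KO_HFD against Lox_HFD, where 8 of the 10 genes had 20 UMIs, Gzma, Gzmb, Prf1 and Ccl5 were higher, beside 8.11% of 481 genes. Xcl1 was lower, beside 16.6%. Single NK-like cells ranged from 0 to 245 UMIs of Gzma with a median of 65, and from 0 to 388 UMIs of Ccl5 with a median of 77, so a gate of 2 to 6 cells can move far with 1 cell. Of the 2 NK-like cells of Lox_HFD, 1 had 89 Gzma UMIs at 3239 CPM and the other 123 at 27700 CPM. The first was thus the deeper cell, and it gave most of the UMIs of all genes in this sum, though fewer of the Gzma UMIs. Summed over 5 monocyte markers, NK-like cells were at 1072, 273, 31.3 and 305 CPM, and the part of this in the ratios was not tested. NK-like cells made up 0.368%, 0.202%, 0.196% and 0.177% of kept cells, with exact intervals that overlap (0.0238 to 0.707% in Lox_HFD). T cell-like cells made up 2.19%, 2.52%, 4.80% and 2.03%, with Lox_HFD (exact interval 3.58 to 6.30%) above the intervals of the other libraries.

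Receptors for some of these ligands were read in all gates. Xcr1, the Xcl1 receptor and one of the markers of the dendritic cell gate, was at 129 CPM in dendritic cell-like cells and at 2.13 CPM in macrophage-like cells. Ccr1, a Ccl5 receptor, was at 476 CPM in neutrophil-like and 144 in macrophage-like cells. Fas was at 115 CPM in endothelial-like, 86.5 in smooth muscle-like, 71.5 in neutrophil-like, 60.0 in thymocyte-like and 58.5 in fibroblast-like cells. It was at 35.6 CPM in T cell-like cells, with 1 UMI in NK-like cells. Ifngr1 was at 1061 CPM in NK-like cells, while Ifngr2, the other chain of the interferon gamma receptor, had 1 UMI there against 107 CPM in T cell-like cells.

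The genes whose pattern was most like the mean standardised profile of the 10, over 31 sums of gate and library with at least 20 cells, were Klre1 (Pearson r = 0.974), Klrc1 (0.968), Klra7 (0.963), Il2rb (0.962) and Gm2682 (0.961). Klre1 was itself used in the NK gate. Of the 10 genes, Fasl (0.971) and Ifng (0.963) followed their common profile most closely and Gzma least (0.735), with Klrd1 at 0.841 and Ccl5 at 0.871. Each of the 10 is itself part of that mean, which raises its r, so these values cannot be set against those of other genes. The sums share libraries and depth, NK-like cells entered with 1 sum only, and the values describe these sums.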

How the data were processed

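The authors deposited raw counts, whole numbers of UMIs per gene and cell barcode, made with Cell Ranger 6.1.2 on mm10 from 10x Chromium 3′ v3.1 libraries and not normalized. The 10 genes and all lists were chosen with earlier results of these data known. The study's filters (200 to 6000 genes detected, mitochondrial share up to 15%) left 14148 of 15599 barcodes. Scrublet (scanpy 1.11.5) marked 306 of them, which were left in and removed as an alternative. Gates used fixed markers and none of the 10 genes. A lymphocyte was set aside as mixed with over 1% stromal marker UMIs, 2 B cell UMIs, 2 dendritic markers or 3 macrophage, neutrophil or endothelial markers, limits set in part after the data were seen. UMIs were summed per gate and library. NK-like and T cell-like sums were compared with edgeR 4.0.16 (quasi-likelihood, TMM, filterByExpr, library as block because each library gave both gates, gate genes left out, Benjamini-Hochberg over all genes), and the code was tested on simulated data. The SE of a log2 fold change is its absolute value divided by the square root of the edgeR F statistic. It is not the spread of the ratios of single libraries. CPM have exact Poisson and shares exact Clopper-Pearson intervals, ratios an exact binomial interval, all at 95% and for counting error only. Genes named beside the 10 were the 10 largest changes each way with an adjusted p under 0.05, at least 50 UMIs and 1 sign in 4 libraries, and up to 4 examples of each list. Promoters came from RefSeq (GRCm38.p6, with 7 of 10 genes matched) and gene positions from GENCODE M21 (GRCm38). Some genes of the lists and an agent given to the high-fat groups are not reported here. Python 3.11.15, R 4.3.3 and DESeq2 1.42.0 were also used.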

Additional observations from a re-analysis of the deposited data

Results flagged for a closer look

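The diet ratio of 2 genes pointed in opposite directions in the 2 genotype labels in T cell-like cells taken as a whole gate. The log2 ratio of high-fat to standard diet for Xcl1 was 0.742 in the Nrf2flox/flox pair (85 against 181 UMIs) and -6.045 in the pair labelled Nrf2Cdh5tKO (1 against 146 UMIs). For Ifng it was 0.698 (46 against 101 UMIs) and -1.781 (5 against 38 UMIs). The differences between the pairs were not tested, since each condition was 1 library, and their source was not tested. Over 9 alternatives the 4 values kept their sign. Xcl1 ran from 0.44 to 1.66 and -6.15 to -4.48, and Ifng from 0.44 to 2.23 and -2.14 to -1.18. Subsets did not all show the opposition. With Cd8 and NK-marked cells summed, the Xcl1 ratios were -0.60 (-1.079 to -0.14) and -5.65, lower in both pairs. Without Trdc cells the Nrf2flox/flox ratios were 0.315 (-0.075 to 0.694) for Xcl1 and 0.285 (-0.252 to 0.802) for Ifng. In Cd8 cells the Ifng ratios were 2.07 and 0.715, the latter from 3 against 4 UMIs.

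Of the barcodes that the cell filters removed, 21 met the lymphocyte gates, 1 of them NK-like and 20 T cell-like, and 1 of the 21 carried at least 3 of the 10 genes. They were not used.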

How the results depend on the processing

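Over 16 alternatives of the comparison of NK-like with T cell-like cells, all 10 genes kept a positive sign. Gzma, Prf1 and Klrd1 passed in all 16, Gzmb and Nkg7 in 15, Ctsw in 14, Fasl in 13, Ccl5 in 12, Xcl1 in 11 and Ifng in 1. Leaving out 1 library at a time gave 34 to 106 genes higher, 66 to 144 lower and 5 to 10 of the 10 genes passing, the lowest of each without Lox_CTR, which holds 29 of the 41 NK-like cells. With no replicate block for the pairing of gates within a library, 83 genes were higher, 111 lower and 8 of the 10 passed. With mixed lymphocytes kept, 25 genes were higher, 33 lower and 3 of the 10 passed, 81.1% of NK-like cells had at least 3 of the genes, and T cell-like cells were 3.14% of Lox_CTR and 3.43% of KO_CTR. DESeq2 called 89 genes lower, and a filter of 1 UMI 327. Thinned to 2000 UMIs, 100% of NK-like and 28.8% of T cell-like cells had at least 3 of the genes. Without Scrublet doublets the Gzma ratio of KO_CTR to Lox_CTR in T cell-like cells was 0.0815 in place of -2.49, and 0 of the 10 genes were apart in that pair. With NK-marked T cells left out, an alternative chosen after seeing the data, 27.6% of T cell-like cells had at least 3 of the genes and 4 of the 10 were apart in that pair. The uncalled Gzmb ratio of KO_HFD to KO_CTR ran from -1.16 to 2.603 over the alternatives. Other causes were not tested. The NK-like gate held 41 cells, and 2 of them were in the library with the fewest kept cells.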
